A study of Mus musculus with 4 samples.

Results

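The 32 genes described here encode proteins of the cytosolic small (40S) ribosomal subunit. They were taken by symbol from 11728 genes named once, as single-gene loci, in both deposited tables: Rps followed by a number and at most the letter a, x or l, plus Rpsa and Fau, with Rps4l left out. All 32 were found in both sets, and all were among the 10261 genes tested, for which the mean of the libraries had to reach 1 FPKM. Rps3a1 also encodes a small subunit protein but does not match that pattern, so its values are given apart.

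RNA-seq was done on embryonic stem cells of the mouse, pluripotent cells that grow in culture. In the Chd1-null group, Rosa26CreER;Chd1fl/- cells were treated with 1 µM tamoxifen, which activates the Cre recombinase made from the Rosa26 locus and so removes the floxed allele of Chd1, an ATP-dependent chromatin remodeler. In the control group, cells of the same genotype received ethanol, so they kept 1 floxed allele beside the null one and are not wild type. Both treatments lasted 48 to 72 h, 3 to 5 passages in serum with LIF followed, and total RNA of equal cell numbers was mixed with 92 ERCC spike-in transcripts. There was 1 Chd1-null and 1 control library in each of 2 sets, so n = 2 per group. The labels mention 2 independently derived lines without tying a set to a line in words, and p-values rest on the spread between the pairs as pooled over genes of similar level, which may be technical, not on a gene's own spread.

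A 40S subunit is built from 1 ribosomal RNA and about as many proteins as there are genes here, and it finds the start codon and reads codons against transfer RNAs. Each protein is needed once per subunit, and many cells keep the messages of these proteins in balance through shared promoter features and through a tract of pyrimidines at the start of the message (the 5′ terminal oligopyrimidine tract, or TOP), which places their translation under the mTOR pathway. Shortage of single small subunit proteins is a known cause of Diamond-Blackfan anemia in humans.

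To show what the starts of these genes look like, the 30 bases from 10 before to 20 from the annotated start onward are given for genes at both ends of the range of change, as far as the RefSeq table used (GRCm38.p6, not the build of the data) held them. Capitals mark a C followed by at least 4 further C or T bases, beginning within 5 bases of the start. Rps27, Rps16, Rpsa and Rps26 had values past the test threshold below, whereas Rps25 and Rps24 had the highest ratios. Windows lay at chr3:90213629-90213658 (minus strand) for Rps27, chr7:28350679-28350708 (plus) for Rps16, chr9:120127756-120127785 (plus) for Rpsa, chr10:128626487-128626516 (minus) for Rps26, chr9:44407704-44407733 (plus) for Rps25 and chr14:24490668-24490697 (plus) for the upstream start of Rps24.
Rps27: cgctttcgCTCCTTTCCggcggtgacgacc
Rps16: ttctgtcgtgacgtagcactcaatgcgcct
Rpsa: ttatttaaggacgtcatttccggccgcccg
Rps26: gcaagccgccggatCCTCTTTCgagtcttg
Rps25: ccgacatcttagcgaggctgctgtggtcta
Rps24: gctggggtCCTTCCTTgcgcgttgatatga

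Both ends of the range thus held genes with and without such a tract at the annotated start. Of 29 windows for 24 of the genes, 13 (44.8%) held one, against 18.3% of all 32851 windows of that table. The letters CCGGAAG, on either strand of the full 300-base window, stood in 11 of the 29 windows (37.9%), against 8.86% of all windows. The 13 genes with a tract at an annotated start had median log2 ratios of -0.21 in set 1 and -0.48 in set 2. The 11 genes without one there had -0.30 and -0.55. Rps21, Rps24 and Rps27l were counted among the 13, although a further annotated start of each held no tract. A tract at a start that is not annotated would be missed, so the 11 genes cannot be said to lack one. The 8 genes with no window in the table had -0.35 and -0.70.

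Chd1 itself, the check of the knockout, stood at 5.71 FPKM in Chd1-null 1 against 27.6 in control 1, and at 8.52 in Chd1-null 2 against 17.9 in control 2 (log2 fold change -1.66, limma SE 0.25, adjusted p = 1.8e-08). This left 20.7% of the control level in set 1 and 47.7% in set 2, so the Chd1-null libraries still held Chd1 message, most in set 2. The values are per gene, and reads over the deleted exons were not analysed here. All 9 pluripotency markers were lower in each set, against 72.4% of all tested genes, and 8 fell, against 9.8%. Their sums were 2007 and 1915 FPKM in Chd1-null cells against 2734 and 3448 in controls. Relative to each set's median log2 ratio over all tested genes, 0 of the 9 fell (against 0.214%). In those terms their median was -0.01 in set 1 and -0.72 in set 2. Pou5f1, a defining factor of these cells, kept 510.2 and 403 FPKM in Chd1-null cells against 599 and 540.5 in controls. Fibroblast markers (5 of 8 in both tables) summed to 2.65 and 4.44 FPKM against 2.69 and 8.29, and endoderm markers (2 of 7) to 0.451 and 1.10 against 0.709 and 1.31. The 4 neural markers summed to 31.0 and 26.9 against 48.0 and 33.5, but this sum was carried by Tubb3, and Nes was higher in Chd1-null cells, at 14.0 and 12.2 FPKM against 11.9 and 9.37. In set 2 only Tubb3 of the 4 was lower, and the median log2 ratio of the 4 was 0.25. Mesoderm markers (2 of 3) summed to 1.03 and 2.198 against 2.76 and 1.20. The part of these shifts in the results below was not tested.

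Small subunit messages were among the most abundant in these cells. All 32 genes lay at or above the 92.4th percentile of level, 31 had a mean of at least 100 FPKM and 13 of at least 1000 FPKM. FPKM by definition is fragments scaled to transcript length and depth, but how the spike-ins changed the scaling here is not known. The scaling to length lets levels of different genes be set beside each other, apart from reads shared with pseudogenes. The 5 highest genes of a library held 31.9% of the summed FPKM of the 32 genes in Chd1-null 1 and 31.9% in control 1, and 35.3% in Chd1-null 2 and 35.5% in control 2. Across the 32 genes, log2 levels of the Chd1-null and control library of a set had Pearson r = 0.98 and Spearman rho = 0.96 in set 1, and r = 0.97 and rho = 0.95 in set 2. These are correlations across genes that share their libraries, given as a description. The order of the genes by level was thus nearly the same in the Chd1-null and control library of a set.

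**Figure D1:**
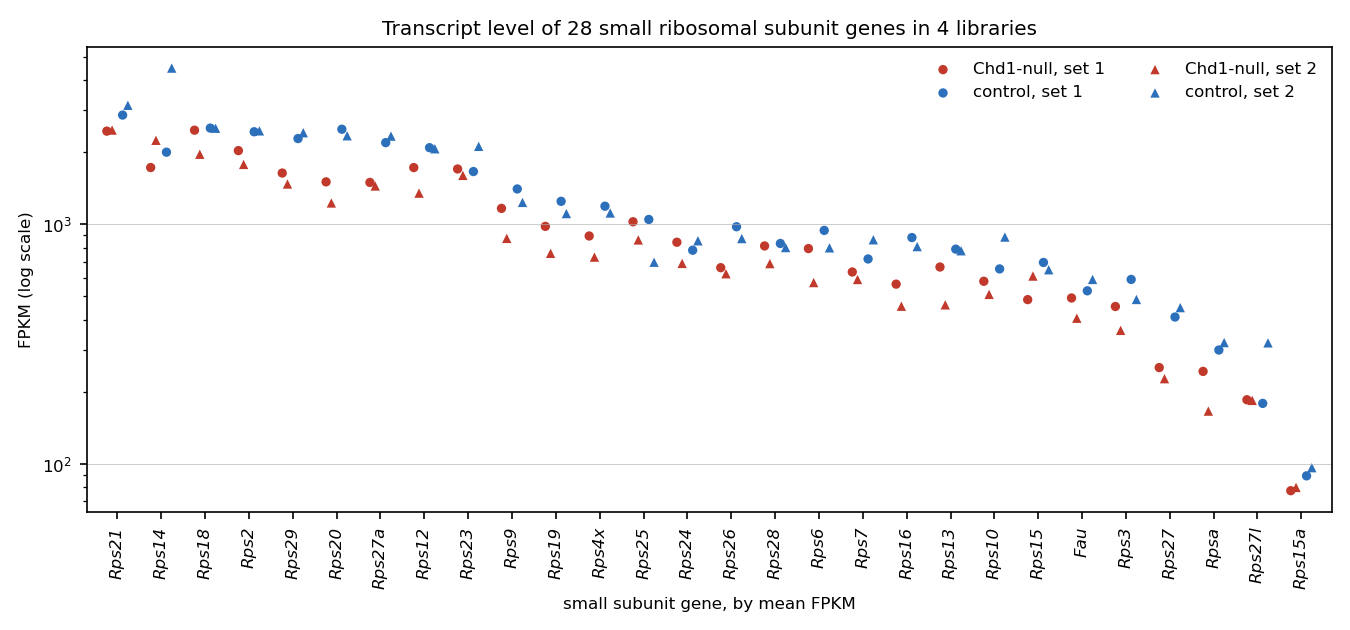
FPKM (log axis) of 28 of the 32 small subunit genes, ordered by mean level, with 1 point per library: Chd1-null libraries in red and to the left, controls in blue, set 1 as circles and set 2 as triangles. Most red points lie below the blue points of the same gene, and the control 2 point of Rps14 at 4497 FPKM is the highest value of all.

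Summed over the 32 genes, FPKM was 32673 in Chd1-null 1 against 39490 in control 1, and 28532 in Chd1-null 2 against 42326 in control 2. The sum in Chd1-null cells was therefore 0.827 of the control in set 1 and 0.674 in set 2 (0.751 ± 0.108, SD, n = 2). As a share of all FPKM in the library, the same genes took 6.996% in Chd1-null 1 against 6.76% in control 1, and 5.51% in Chd1-null 2 against 5.88% in control 2. The summed level was lower in both sets, while the share of the library moved in opposite directions. In RNA from a whole culture, fewer cells that express a gene and less of its RNA per cell cannot be told apart. With 2 pairs a two-sided exact sign-flip test cannot go below p = 0.5, so no test was made on the sums. Control 2 alone had the high Rps14 value, and without that gene the sum was 0.826 of control in set 1 and 0.695 in set 2.

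**Figure D2:**
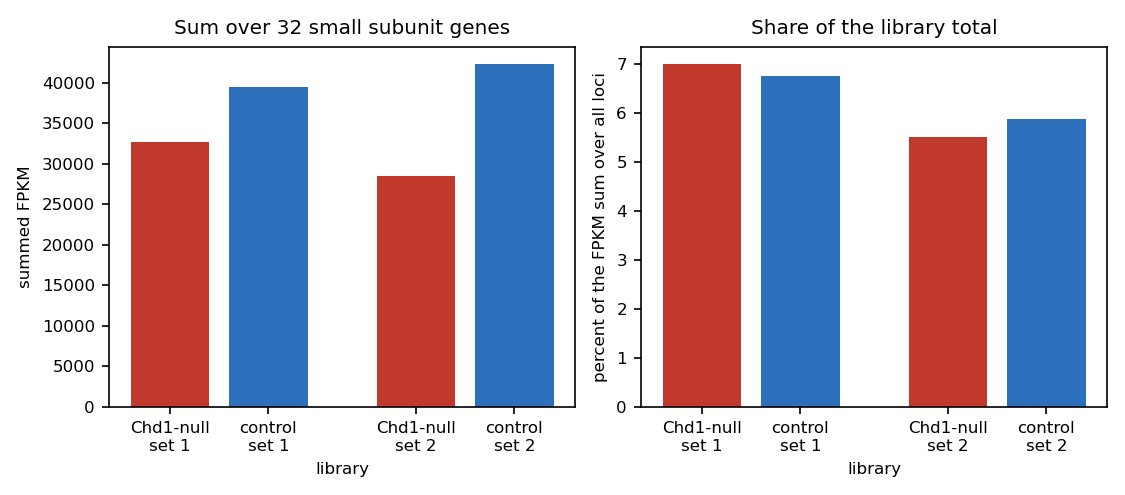
Left, FPKM summed over the 32 genes in each library. Right, that sum as a percent of the FPKM of all loci. Bars for Chd1-null are red and stand left of the control of the same set. Sums are lower in Chd1-null in both sets (32673 against 39490, and 28532 against 42326), whereas the shares are 6.996% against 6.76% and 5.51% against 5.88%.

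Gene by gene, 28 of the 32 (87.5%) stood lower in the Chd1-null library of each set, against 72.4% of all tested genes. In 25 of them (78.1%) both Chd1-null libraries lay below both controls, against 52.6% of all tested genes. None was higher in both sets, against 2.81% of all. By limma on log2(FPKM + 0.1), with set as a block and adjustment over all 10261 genes, 8 fell (25%, against 9.8% of all tested genes) and 0 rose (against 0.0682%). Abundant genes are the closer comparison, since the variance in this fit depends on level. Of the 995 other genes of the highest level class 195 fell and 1 rose, and of 47 large subunit genes 11 fell. The 25% is therefore not shown to be particular to the small subunit. Without adjustment 19 of the 32 had p under 0.05, all of them lower, against 2968 lower and 27 higher of all 10261 tested genes. The 8 calls rest on a variance shared by genes of similar level and on the block. With one common prior variance 0 passed (4 unadjusted), and without the block 0 passed (9 unadjusted). They rest also on the scaling of the deposited values. Scaled to library totals 0 fell (3 unadjusted), and the median log2 ratio of the 32 genes went from -0.39 to 0.00461. Over all 10261 tested genes 0, 0 and 37 fell in these fits, so the counts of 0 are no result about the small subunit. Unadjusted p was under 0.05, in either direction, for 1718, 1043 and 734 of all tested genes.

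Rps27, a zinc-binding protein of the body of the subunit, stood at 252 FPKM in Chd1-null 1 against 410.4 in control 1, and at 227 in Chd1-null 2 against 449 in control 2. Both Chd1-null libraries were lower than both controls by a wide margin, and Rps27 fell by 0.84 on the log2 scale (limma SE 0.17, adjusted p = 0.00017). Rps20, a protein of the head, had 1506 against 2498 FPKM in Chd1-null 1 and control 1, and 1229 against 2345 in Chd1-null 2 and control 2. This left 60.3% of the control level in set 1 and 52.4% in set 2 (fell by 0.83 ± 0.21, SE, limma adjusted p = 0.0039). For Rps16, a head protein whose tail reaches the transfer RNA in the P site, the values were 563 FPKM in Chd1-null 1 against 881 in control 1, and 455 in Chd1-null 2 against 808 in control 2 (fell by 0.74 ± 0.18, SE, limma adjusted p = 0.0032). These were the 3 lowest genes of the module by mean ratio, without overlap between the groups, and in each the ratio of set 2 was the lower one.

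Rpsa, first described as a laminin receptor and part of the subunit's body, had 243 FPKM in Chd1-null 1 against 299 in control 1 and 166 in Chd1-null 2 against 321 in control 2. By limma Rpsa fell by 0.62 (adjusted p = 0.0086, SE 0.17), and more of this came from set 2, where the log2 ratio was -0.95 against -0.30 in set 1. Rps27a, made as a fusion with ubiquitin that is later cut off, stood at 1498 FPKM in Chd1-null 1 against 2197 in control 1, and at 1447 in Chd1-null 2 against 2337 in control 2 (fell by 0.62 ± 0.21, SE, limma adjusted p = 0.037). The groups did not overlap in either gene. The other fusion gene, Fau, whose product joins a ubiquitin-like protein to a small subunit protein, had 493 FPKM in Chd1-null 1 against 528 in control 1 and 406 in Chd1-null 2 against 589 in control 2. Its groups did not overlap either, but its log2 fold change of -0.32 (SE 0.18) did not pass (limma adjusted p = 0.21).

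Rps29, a small zinc-binding protein of the head, had 1639 FPKM in Chd1-null 1 against 2284 in control 1, and 1475 in Chd1-null 2 against 2415 in control 2 (fell by 0.59 ± 0.21, SE, limma adjusted p = 0.0496). The groups did not overlap, and the lower ratio was that of set 2. Rps26, at the channel where messenger RNA leaves the subunit, had 659.6 FPKM in Chd1-null 1 against 978 in control 1, and 622 in Chd1-null 2 against 873 in control 2 (fell by 0.53 ± 0.19, SE, limma adjusted p = 0.048). Its sets were close, with 67.5% of control left in set 1 and 71.3% in set 2. Of the genes that passed, Rps26, Rps27a and Rps29 were closest to the threshold of 0.05. With no filter on low values these 3 did not pass and 5 genes fell. With a mean of at least 5 FPKM Rps26, Rps29 and Rpsa were among those that did not pass, and 4 genes fell. Over all tested genes 927 of 11728 fell with no filter and 225 of 6861 with a mean of at least 5 FPKM.

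At the upper end of the module, Rps25, a head protein used in initiation at some viral internal ribosome entry sites, had 1026 FPKM in Chd1-null 1 against 1049 in control 1, and 861 in Chd1-null 2 against 695 in control 2. It was the one member with a higher value in Chd1-null cells in set 2, and its groups overlapped (log2 fold change 0.14, SE 0.19, limma adjusted p = 0.60). Rps24, a body protein, had 843 FPKM in Chd1-null 1 against 780.2 in control 1, and 687 in Chd1-null 2 against 854 in control 2, so the sets went opposite ways (log2 fold change -0.10, SE 0.19, limma adjusted p = 0.70). Rps28, a small head protein near the messenger RNA exit, had 813 FPKM in Chd1-null 1 against 833 in control 1, and 686 in Chd1-null 2 against 800.4 in control 2 (log2 fold change -0.13, SE 0.19, limma adjusted p = 0.62). None of these 3 differed beyond the spread used by the test.

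Rps27 has a paralog, Rps27l, which is known as a target of p53. Rps27l had 185 FPKM in Chd1-null 1 against 179 in control 1, and 184 in Chd1-null 2 against 320.0 in control 2. The libraries other than control 2 lay together, and the log2 ratios of 0.05 and -0.80 were the farthest apart of any member (log2 fold change -0.37, SE 0.17, limma adjusted p = 0.13). Rps14, a protein of the subunit's platform whose loss marks the human 5q- syndrome, showed the next largest gap. It had 1729 FPKM in Chd1-null 1 against 2003 in control 1, and 2246 in Chd1-null 2 against 4497 in control 2. Chd1-null 2 thus lay above control 1, the groups overlapped, and the log2 fold change of -0.61 (SE 0.22) narrowly missed the threshold (limma adjusted p = 0.054). Rps14 made up 5.29% of the summed small subunit FPKM in Chd1-null 1 against 5.07% in control 1, and 7.87% in Chd1-null 2 against 10.6% in control 2. Control 2 over control 1 was 2.25 for Rps14 and 1.79 for Rps27l, against a median of 1.01 over the 32 genes. Each set is its own table, and how the tables were scaled to each other is not given in the sources used here.

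Besides Rps14, the genes of highest level were Rps21 and Rps18, both with ratios nearer to 0 than the module's median of -0.39. Rps21, a small protein of the body, had 2453 FPKM in Chd1-null 1 against 2863 in control 1, and 2478 in Chd1-null 2 against 3144 in control 2 (log2 fold change -0.28, SE 0.22, limma adjusted p = 0.37). Rps18, a head protein that forms a bridge to the large subunit, had 2476 FPKM in Chd1-null 1 against 2526 in control 1, and 1964 in Chd1-null 2 against 2522 in control 2 (log2 fold change -0.20, SE 0.22, limma adjusted p = 0.52). In both genes the groups separated without passing the test. Rps15a, a body protein with the lowest FPKM of the module, had 77.2 FPKM in Chd1-null 1 against 89.1 in control 1, and 79.6 in Chd1-null 2 against 96.3 in control 2 (log2 fold change -0.24, SE 0.17, limma adjusted p = 0.32). Its sets differed little, as did those of Rps3, which lines the messenger RNA entry and had 454 FPKM in Chd1-null 1 against 589 in control 1, and 361 in Chd1-null 2 against 486 in control 2 (log2 fold change -0.40, SE 0.18, limma adjusted p = 0.12).

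A further 14 genes kept 69.9% to 102.5% of the control level in set 1 and 57.6% to 94.1% in set 2, with log2 fold changes from -0.51 to -0.18 and limma adjusted p from 0.057 to 0.53. Of these, Rps6, the substrate of the S6 kinases, kept 84.0% in set 1 and 71.6% in set 2. Rps19, the protein most often mutated in Diamond-Blackfan anemia, kept 78.6% and 68.2%. Rps4x, encoded on the X chromosome, kept 75.1% and 65.4%, and Rps10, a head protein, 88.8% and 57.6%. Rps23, which carries residues of the decoding center, kept 102.5% and 75.6%, and Rps2, at the messenger RNA entry, 83.4% and 72.4%. Rps13, which forms bridges to the large subunit, kept 84.2% and 59.4%. Rps15, a head protein near the decoding center, was the opposite of most, with 69.9% in set 1 and 94.1% in set 2. The body protein Rps7 kept 88.2% in set 1 and 68.2% in set 2, and Rps9 kept 83.0% and 70.8%. The head protein Rps12 kept 82.6% in set 1 and 65.3% in set 2. In 12 of these 14 genes both Chd1-null libraries lay below both controls, which held for 52.6% of all tested genes.

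**Figure D3:**
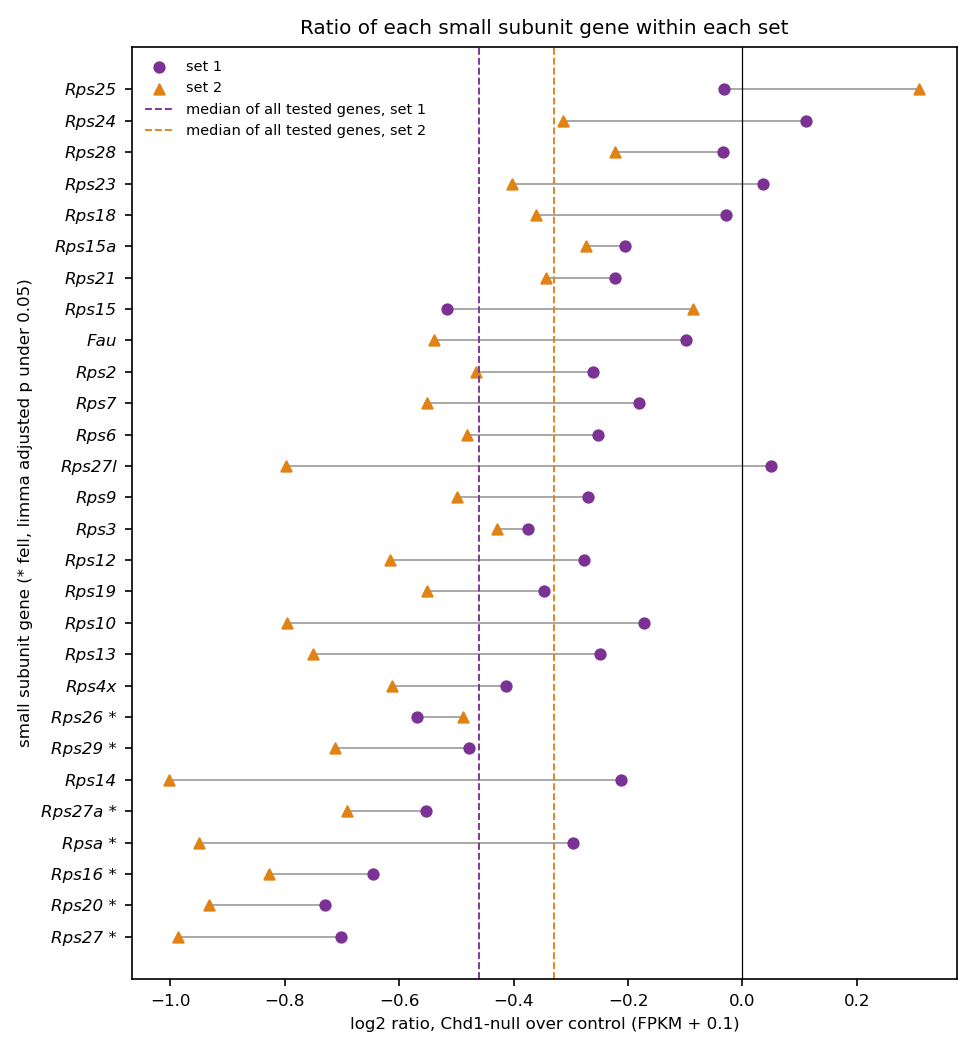
Log2 ratio of Chd1-null over control for 28 of the 32 genes, in set 1 (circles) and set 2 (triangles), joined by a line. Dashed lines mark the medians of all tested genes, -0.46 in set 1 and -0.33 in set 2, and asterisks those drawn that fell. Most circles lie right of the set 1 line and most triangles left of the set 2 line.

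The sets differed in how far the small subunit genes were lowered. The median log2 ratio of the 32 genes was -0.26 in set 1 (quartiles -0.42 and -0.15) and -0.55 in set 2 (quartiles -0.74 and -0.42), while that of all tested genes was -0.46 in set 1 and -0.33 in set 2. In 29 of the 32 genes the ratio was lower in set 2 than in set 1, against 42.1% of all tested genes. The same held for 80.9% of the large subunit genes and 72.2% of the 995 other genes of the highest level class. With each set's trend of ratio on level removed it held for 16 of the 32. Rps15, Rps25 and Rps26 were the exceptions, named after their values were seen. With 1 library per group in a set, this difference could not be tested. Setting the tables beside each other, the 32 genes had a median control 2 over control 1 ratio of 1.01 and a median Chd1-null 2 over Chd1-null 1 ratio of 0.831, and 28 of 32 (87.5%) were lower in Chd1-null 2 than in Chd1-null 1. Over all tested genes those medians were 0.980 and 1.07, and 42.0% were lower in Chd1-null 2. The scaling between the tables is not known, so these levels are a description.

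The SD of the log2 ratios over the 32 genes was 0.22 in set 1 and 0.28 in set 2, against 0.53 and 0.45 over all tested genes. It was 0.30 and 0.28 over the large subunit, 0.31 and 0.29 over the highest level class and 0.26 and 0.23 over the assembly factors, so in set 2 the spread was near that of these groups. In each set, 23 of the 32 lay within 0.25 (log2) of the module's own median, and 22 lay on the same side of it in both sets. The same counts were not made for other groups, so they do not show a trait particular to the module. The log2 ratios of the sets across the 32 genes had Pearson r = 0.43 and Spearman rho = 0.42, against r = 0.56 and rho = 0.59 across 47 large subunit genes and r = 0.03 and rho = 0.00406 across all tested genes. Within a set, the ratio showed little relation to the gene's level in the module (r = -0.0027 in set 1 and 0.02 in set 2) or to the length of its GENCODE transcript (r = -0.09 and 0.05). These are correlations across genes of 4 shared libraries and describe these libraries only.

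By place in the subunit, the 14 head genes had a median of -0.36 in set 1 and -0.61 in set 2, and 5 of them fell, among them Rps16, Rps20, Rps27a and Rps29. The 18 body and platform genes had medians of -0.24 and -0.53, and 3 fell: Rps26, Rps27 and Rpsa. Of the 10 genes listed for Diamond-Blackfan anemia 4 fell, Rps26, Rps27 and Rps29 among them, with medians of -0.28 and -0.55. In the GENCODE M21 annotation 9 of the 32 genes hold genes of small nucleolar RNAs, which guide the modification of ribosomal RNA, within their bounds on the same strand. These 9 genes had medians of -0.28 and -0.62, and 3 fell (Rps16, Rps20 and Rpsa). The other 23 had -0.21 and -0.54, and 5 fell. These counts stand beside 8 of all 32 genes (25%) and 9.8% of all tested genes that fell. Of the 995 other genes of the highest level class 195 fell. The differences between these subgroups were not tested.

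A relative comparison asked how the genes stood against the shift of most genes. After each set's median log2 ratio was subtracted, 0 of 32 fell (against 0.214% of all tested genes) and 0 rose (against 0.146%) in limma. The lowest limma adjusted p was 0.88, and 0 of 32 had an unadjusted p under 0.05, against 645 of 10261 tested genes. With so few calls over all genes, 0 that fell and 0 that rose are no result about the small subunit. The limma SE of these genes was also larger than in the main test, at 0.26 against 0.17 for Rps27 and 0.42 against 0.22 for Rps21. The module's median was 0.20 in set 1 and -0.22 in set 2, so it lay above the median of all genes in one set and below it in the other. In relative terms Rps25 was highest, at 0.53, and Rps27 and Rps20 lowest, at -0.45 and -0.44. With each set's trend of ratio on level removed instead, an alternative added after seeing the data, the medians were -0.04 and -0.11. Again 0 fell (against 0.0877% of all tested genes) and 0 rose (against 0.039%) in limma, with a lowest adjusted p of 0.21. Unadjusted, 4 were lower and 1 higher, against 824 of 10261 tested genes in either direction.

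Other genes of the ribosome and of its control were set beside these, and the counts of their lists stand against the 9.8% of all tested genes that fell. For the large subunit, mostly abundant genes, the 195 of 995 genes of the highest level class that fell are the closer comparison. Of 47 large subunit genes 11 fell and 0 rose, and their median was -0.23 in set 1 but -0.45 in set 2. Rpl10, which completes the large subunit late in its assembly, was the lowest, at 420.1 FPKM in Chd1-null 1 against 891 in control 1 and 396 in Chd1-null 2 against 797 in control 2 (fell by 1.05, SE 0.18, limma adjusted p = 3.2e-06). Rpl10a fell by 0.75 (adjusted p = 0.0031) and Rpl13a by 0.72 (adjusted p = 0.0033) in the same limma test. The ratio of summed small subunit to summed large subunit FPKM was 0.749 in Chd1-null 1 against 0.765 in control 1, and 0.760 in Chd1-null 2 against 0.805 in control 2. Summed large subunit FPKM in Chd1-null cells was 0.845 of control in set 1 and 0.715 in set 2, beside 0.827 and 0.674 for the small subunit.

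Other known TOP messages gave 4 that fell of 18 and 0 that rose, with medians of -0.31 and -0.49. Among them Pabpc1, the poly(A)-binding protein, fell by 1.41 (limma adjusted p = 3.4e-13), with log2 ratios of -1.86 in set 1 and -0.95 in set 2. The elongation factor Eef1a1 fell by 0.90 (limma adjusted p = 0.013) and Tpt1 by 0.70 (adjusted p = 0.0041). Gnb2l1, the RACK1 protein bound to the head of the small subunit, had 1398 FPKM in Chd1-null 1 against 1603 in control 1, and 1370.2 in Chd1-null 2 against 1867 in control 2 (log2 fold change -0.32, limma adjusted p = 0.27). Rps3a1 had 1868 FPKM in Chd1-null 1 against 2127 in control 1, and 1584 in Chd1-null 2 against 1783 in control 2 (log2 fold change -0.18, SE 0.21, limma adjusted p = 0.54). Rps4l, a relative of Rps4x left out of the module, had 165 and 168 FPKM in Chd1-null cells against 231 and 246 in controls (fell by 0.52, limma adjusted p = 0.031).

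Of 60 tested factors that assemble the small subunit 2 fell and 0 rose, with medians of -0.22 and -0.29. Rcl1, which takes part in processing of the ribosomal RNA precursor, had 31.9 FPKM in Chd1-null 1 against 45.0 in control 1, and 30.2 in Chd1-null 2 against 49.5 in control 2 (fell by 0.60, limma adjusted p = 0.025). Imp3, which binds the U3 small nucleolar RNA, had 95.8 FPKM in Chd1-null 1 against 138 in control 1, and 90.4 in Chd1-null 2 against 137 in control 2 (fell by 0.56, limma adjusted p = 0.019). The largest change that did not pass was that of Dhx37, an RNA helicase (log2 fold change -0.64, limma adjusted p = 0.10). Tsr2, the carrier of the Rps26 protein, had 10.5 and 7.504 FPKM in Chd1-null cells against 9.67 and 7.46 in controls (log2 fold change 0.06, limma adjusted p = 0.88). Rps19bp1, which binds the Rps19 protein, had 22.5 and 17.8 FPKM in Chd1-null cells against 24.1 and 13.6 in controls (log2 fold change 0.15, limma adjusted p = 0.63). Neither of these genes differed beyond the spread used by the test.

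Of 18 S6 kinase and TOP regulator genes 4 fell and 0 rose, with medians of -0.56 and -0.26. The translation repressor Eif4ebp2 fell by 1.35 (limma adjusted p = 6.1e-05), with log2 ratios of -2.05 in set 1 and -0.66 in set 2. The TOP-binding protein Larp1 fell by 0.65 (limma adjusted p = 0.014), with -1.08 and -0.22, so in both genes most of the difference came from set 1. The kinase Rps6ka2 fell by 0.98 (limma adjusted p = 0.026), with -1.13 and -0.83. Of 14 p53 targets, a pathway that responds to free ribosomal proteins, 2 fell and 0 rose, a share near that over all tested genes, with medians of -0.31 and -0.14. Zmat3 fell by 0.94 (limma adjusted p = 0.030), with log2 ratios of -1.72 in set 1 and -0.17 in set 2. Sesn2 fell by 0.55 (limma adjusted p = 0.033), with -0.86 and -0.24, so both calls came mostly from set 1. Among 995 genes of the highest level class, drawn as a group of its own in the plot of medians by gene group and without the 32 members, 195 fell and 1 rose. Their median was -0.20 in set 1 and -0.38 in set 2, so the small subunit median was the lower one in each set. No test of the difference between lists was made.

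**Figure D4:**
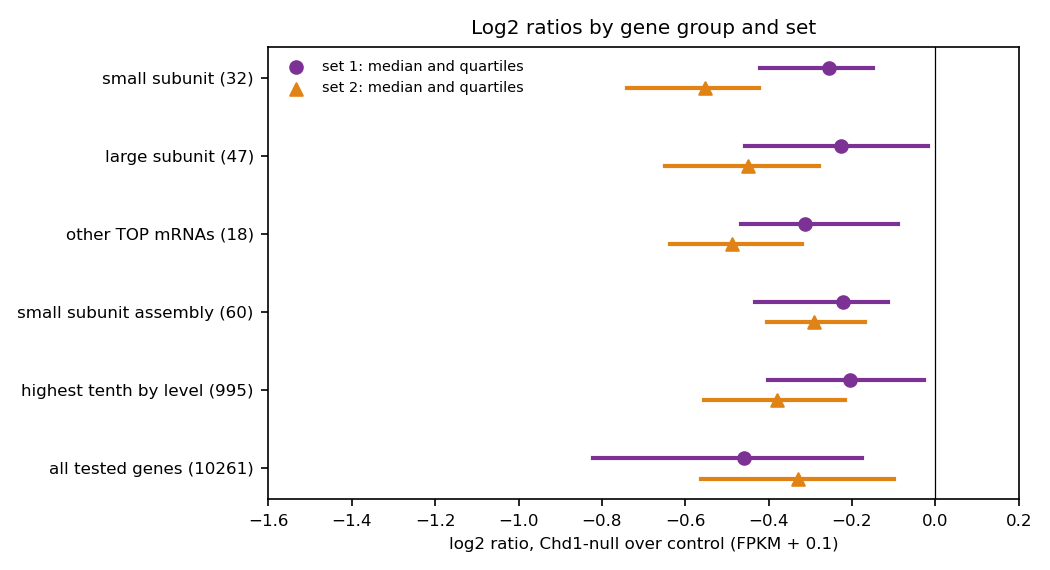
Median (symbol) and quartiles (line) of the log2 ratio of Chd1-null over control in set 1 (purple circles) and set 2 (orange triangles), for gene groups with the number of genes in brackets. The small subunit has medians of -0.26 and -0.55, the large subunit -0.23 and -0.45, small subunit assembly factors -0.22 and -0.29, and all tested genes -0.46 and -0.33.

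Processed pseudogenes of ribosomal protein genes are numerous in the mouse genome, and how reads shared with such copies were counted is not given in the sources used here, so single values are uncertain. One such copy, Rps15a-ps6, was listed with 10.5 and 12.4 FPKM in Chd1-null cells against 13.6 and 14.8 in controls.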

How the data were processed

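Per the labels' protocols, total RNA was depleted of ribosomal RNA, and stranded libraries were read as pairs of 100 bases on 2 lanes. The build mm9 and the tools Cufflinks 2.2.0, Cuffdiff and TopHat2 2.0.10 are named in the submitters' processing notes. The deposited values were taken as FPKM, though no header states that unit. The use of the ERCC transcripts in scaling is not given in the sources used here. The main test took the values as deposited, on the premise, not checked here, that they are normalized to cell number with the spike-ins. Read depth is unknown. FPKM summed over loci to 466994 in Chd1-null 1 and 584520 in control 1, and to 518032 in Chd1-null 2 and 719549 in control 2. The ratio deposited by the authors equalled the quotient of its value columns.

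Genes were joined by symbol, leaving out loci that merge genes and repeated symbols. Values were compared as log2(FPKM + 0.1), which understates changes of low genes, with limma 3.58.1 in R 4.3.3 (eBayes with a variance trend, two-sided, Benjamini-Hochberg at 0.05, set as block). Set was the block because tables were made per set and the libraries of a set deviated together (r = 0.483). The fit has 1 residual degree of freedom and infinite prior degrees, so a gene's own spread between sets does not enter its p. The relative comparison subtracted each set's median log2 ratio. The fit was also run on simulated data with no set effect and no shift shared by most genes, so that run does not cover these features of the data. Alternatives covered the pseudocount, the filter, scaling, block, prior variance, repeated symbols and left-out libraries.

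Members and lists were chosen with earlier results of these data known. Values per library are given for members past the threshold, the 3 highest and 3 lowest in level, the 3 with the largest and the 3 with the smallest gap between sets, the 3 highest ratios, Rps27, Rps27l, Rps27a and Fau. Some members are not reported by name or drawn here; counts and medians include them. Other lists were named by up to 3 genes of largest change and like sign in both sets, plus Tsr2, Rps19bp1 and Gnb2l1. They were the large subunit, assembly factors (60 of 61 tested), other TOP messages (18 of 20), S6 kinases and TOP regulators (18), p53 targets (14) and the markers.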

Additional observations from a re-analysis of the deposited data

How the results depend on the processing

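The count of 8 small subunit genes that fell was 5 with no filter on low values, 4 with a mean of at least 5 FPKM, and 8 or 7 with a pseudocount of 1 or with repeated symbols summed; all of these were among the 8. It was 0 with no replicate block, with one common prior variance and scaled to library totals. Fits of 3 libraries without a block assume that the lone library of a group varies like the others. For the large subunit, the count of 11 became 7, 6, 1 (library totals), 0 (no replicate block), 0 (one common prior variance) and 0 to 0 without single libraries. For assembly factors, 2 became 3 with no filter on low values and 0 with a mean of at least 5 FPKM, library totals, no replicate block, one common prior variance and without single libraries. Over all tested genes 1006 of 10261 fell in the main fit and 927 of 11728 with no filter on low values. With a mean of at least 5 FPKM 225 of 6861 fell, and with library totals 37 of 10261. With no replicate block and with one common prior variance 0 fell. Counts of 0 in those fits are thus no result about these lists. The cause of these changes was not tested. The median log2 ratio of the 32 genes was -0.39, from -0.55 to -0.26 with one set left out, and turned to 0.00461 with library totals. Relative to each set's median it was 0.0004956, and turned to -0.0445 with a pseudocount of 1 and to -0.0353 with a mean of at least 5 FPKM, and lay from -0.22 to 0.20 with one set left out. The summed FPKM in Chd1-null over control, 0.751, was 0.986 with library totals and 0.674 to 0.827 with one set left out. Counting Rps3a1 or leaving out Rps27l kept the count at 8.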
